A study of Mus musculus with 6 samples.

Results

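The amino acid transporter genes of mouse embryonic fibroblasts (MEFs) were taken as the protein-coding genes of solute carrier families SLC1, SLC3, SLC6, SLC7, SLC36, SLC38 and SLC43 whose symbol ends in the member number. Slc6a20a and Slc6a20b end in a letter and were counted with the further carriers instead. Gene identifiers of the expression table were matched to GENCODE symbols, and 61 of the 56953 genes in the table were members. Of these, 27 were tested, since 3 or more libraries gave them 10 or more normalized counts, and 34 were below that filter.

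The data were RNA sequencing libraries of cultured MEFs, 3 of them labelled WT and the other 3 GαqKO. The study describes the second line as fibroblasts lacking both Gαq and Gα11, the G protein subunits that couple many receptors to phospholipase C. All cells grew in DMEM with 10% fetal bovine serum, antibiotics included, and no treatment or embryonic age was given in the labels. Whether each line is a single clone, and whether both lines came from the same litter, was not given in the sources used here, so each genotype is represented by 1 line.

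Amino acids cross membranes through carriers that differ in what they use as driving force. SLC1, SLC6 and system A carriers of the SLC38 family let sodium run down its gradient and can concentrate their substrates, whereas SLC7 light chains mostly exchange an amino acid outside for another inside and reach the plasma membrane bound to an SLC3 heavy chain. Glutamine, leucine, arginine and cystine brought in this way feed protein synthesis, the mTORC1 pathway and glutathione in dividing fibroblasts, and SLC36 and several SLC38 carriers work on lysosomes.

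The table held normalized counts, meaning gene counts divided by a size factor of each library, which summed to between 11392429 and 11483486 per library. In the 5 libraries whose recovered reads were used, 9853000 to 12229175 reads lay on genes. Gnaq, the gene for Gαq, was not lower in the libraries labelled GαqKO (1959.7, 1931 and 1888 normalized counts against 1666, 1660.2 and 1747 in WT, log2 fold change 0.19, adjusted p = 0.00212), and counts over a whole gene cannot show the loss of single exons. The study reported that its GαqKO fibroblasts lacked Gαq protein by Western blot and immunofluorescence, which RNA counts do not measure. Gna11 had 472, 464 and 419 against 2141, 2179.9 and 2123 (log2 fold change -2.25, adjusted p = 9.16e-13). Ddx3y, Eif2s3y, Kdm5d and Uty, which lie on the Y chromosome, had at least 262 normalized counts in every WT library and 0 in every library labelled GαqKO, so the lines also differed in this and the genotype cannot be told apart from other differences between lines. All 10 fibroblast markers examined passed 10 normalized counts in some library. Their summed level was 85215 to 91043 in WT and 62930.3 to 66176 in the libraries labelled GαqKO, but Thy1 was at most 2.1 in WT and Pdgfra at most 21.9, against 59.0 to 76.5 and 2274 to 2356. Of 5 epithelial markers, 2 were above 10: the list summed to 492 to 511 in WT, almost all Cdh1 and Krt14, and to 9.0 to 20.8 in the others, while Epcam, Krt5 and Cldn4 stayed at or under 8.1. Endothelial, leukocyte and skeletal muscle lists summed to at most 25.4 in any library, and a neuronal and glial list to 67.1 to 79.3 in WT and 71.7 to 82.6 in the others. The part of these differences in the results on transporters was not tested.

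Transporter genes changed about as often as genes in general. Of the 27 tested, 6 rose and 13 fell in the libraries labelled GαqKO by limma (adjusted p below 0.05, Benjamini-Hochberg over all 14096 genes tested). That is 70.4%, near the 65.8% of all tested genes that were called, with 31.8% of all genes higher and 34.1% lower. Past a log2 fold change of 1 were 5 transporter genes or 18.5%, against 20.7% of all genes (10.2% higher and 10.5% lower). Slc1a3 was the 1 that rose that far, and Slc38a1, Slc38a4, Slc6a17 and Slc43a3 were the 4 that fell. Slc6a17 and Slc43a3 passed the filter only through the WT libraries, where they were high. The median log2 fold change was -0.23 over the 27 and -0.012 over all genes tested, and the median absolute change 0.45 against 0.39. The 3 values of one group lay wholly above or below those of the other for 19 of the 27, against 69.6% of all genes tested. In such bulk samples, fewer cells of a type and less RNA per cell cannot be told apart.

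**Figure D1:**
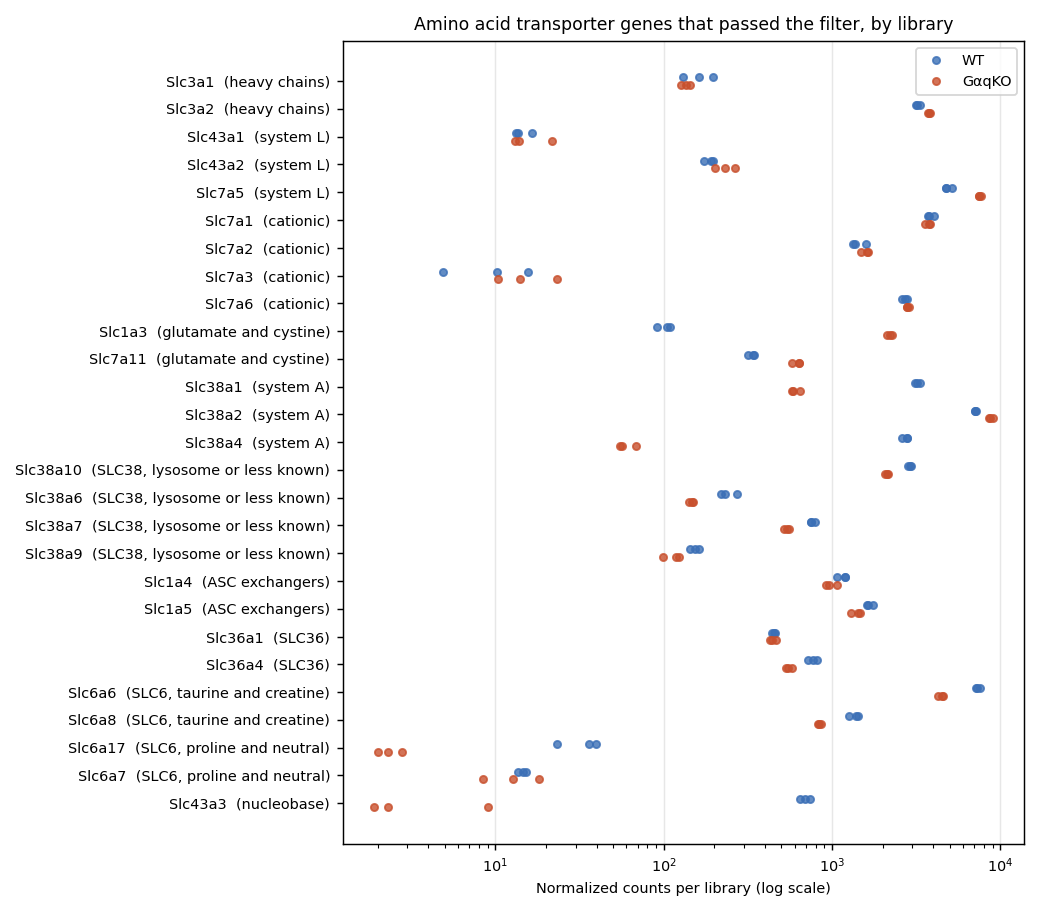
Normalized counts (log scale) of the 27 tested transporter genes, 1 point per library, WT in blue and libraries labelled GαqKO in orange, grouped by what the carriers move. The groups lie farthest apart for Slc1a3, which was higher, and for Slc38a4 and Slc43a3, which were lower.

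By family, the calls were distributed as follows. All 3 tested SLC1 genes passed the test, 1 higher and 2 lower, and so did all 7 tested SLC38 genes, 1 higher and 6 lower. Of 4 tested SLC6 genes 3 were lower and none higher, and of 6 tested SLC7 genes 2 were higher and none lower. SLC43 had 1 higher and 1 lower of 3, SLC36 had 1 lower of 2, and SLC3 had 1 higher of 2. Over all genes tested, 65.8% were called, 31.8% higher and 34.1% lower, and the numbers per family are small. The difference between families was not tested.

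**Figure D2:**
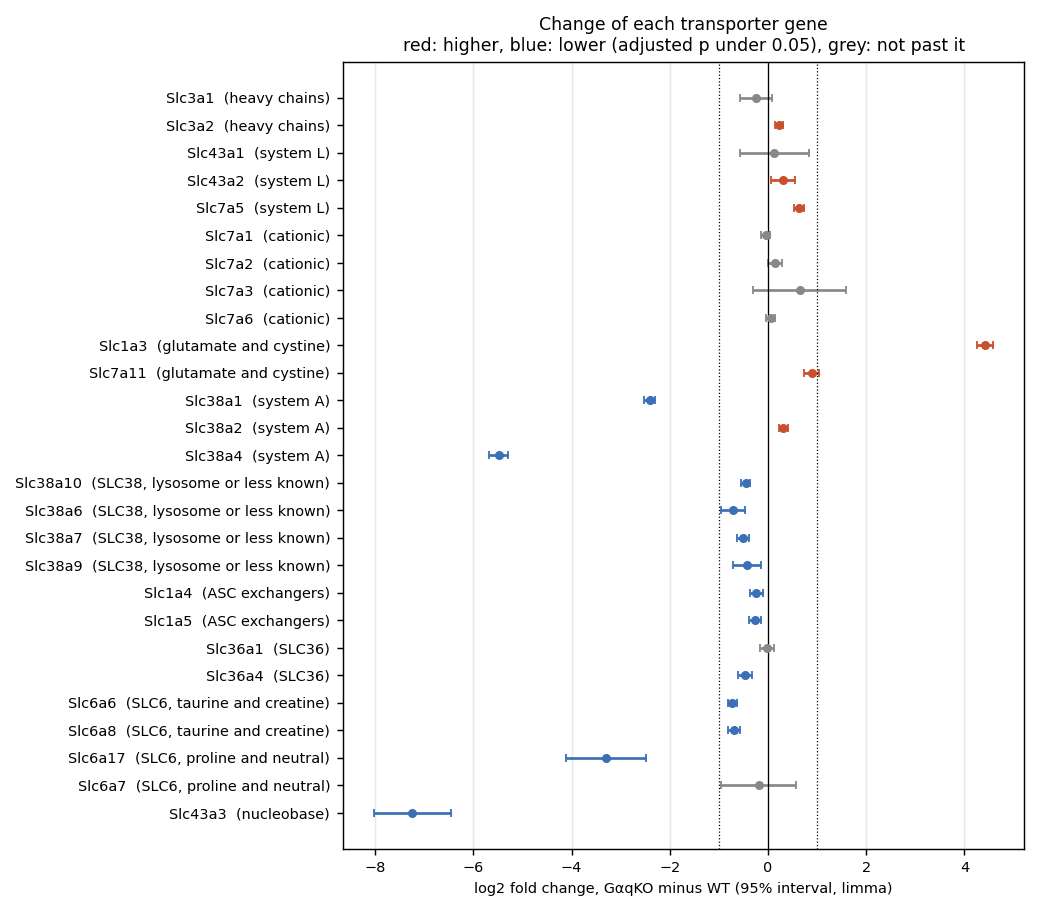
Log2 fold change of each tested transporter gene, libraries labelled GαqKO minus WT, with the 95% interval from limma; red marks genes that were higher, blue lower and grey not past an adjusted p of 0.05, and dotted lines mark a log2 fold change of 1 either way. Changes run from -7.24 for Slc43a3 to 4.42 for Slc1a3, and most intervals lie inside the dotted lines.

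Slc1a3 and Slc7a11, the tested genes of the glutamate and cystine group, were both higher. Slc1a3 encodes GLAST, the sodium-coupled glutamate and aspartate carrier best known from astrocytes, and lies on the minus strand at chr15:8663604-8741595 (GRCm39). It had 91.9, 109.8 and 105 normalized counts in WT replicates 1, 2 and 3 and 2132, 2211 and 2282 in the libraries labelled GαqKO. The groups were far apart, and the ratio of the means was 21.6. The log2 fold change was 4.42 ± 0.077 (SE, limma adjusted p = 2.3e-14). Of the glial markers, Gfap was 13.6, 7.8 and 12.2 in WT and 10.3, 4.6 and 7.0 in the others, and Sox10 was at or near 0 in all 6 libraries.

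Slc7a11 encodes xCT, the light chain that trades intracellular glutamate for extracellular cystine and so supplies cysteine for glutathione. It had 316, 341 and 343 normalized counts in WT and 578, 636 and 639.5 in the libraries labelled GαqKO. The groups did not overlap, with a log2 fold change of 0.89 ± 0.072 (SE, limma adjusted p = 1.14e-07) and a ratio of 1.85. Its promoter is shown because it holds a sequence that amino acid shortage and cell stress are known to act through. The letters TGATGNAA are the core of the C/EBP-ATF composite element, to which ATF4 binds, and were sought on both strands from 250 bases before to 50 bases after each start in the RefSeq promoter table (GRCm38.p6). They occurred in 1304 of 32851 such windows (3.97%), and 23 windows (0.07%) held 2 or more. Of the 27 tested transporter genes 18 had a window, with 24 windows among them, and 2 of these genes held the letters. The share above is of windows, so this count of genes is not on the same unit. The stretch from 100 bases before to 10 bases after the start is given below 5′ to 3′ for both, with matches in capitals. Slc7a11 lies on the minus strand at chr3:50398053-50398162 (GRCm39) and has 2 matches that do not overlap, which begin 66 and 47 bases before the start. Slc1a4 lies on the minus strand at chr11:20282704-20282813 and has 1, beginning 4 bases before the start.
Slc7a11 promoter: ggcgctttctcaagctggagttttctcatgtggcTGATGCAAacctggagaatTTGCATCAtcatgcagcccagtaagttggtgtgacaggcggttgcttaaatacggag
Slc1a4 promoter: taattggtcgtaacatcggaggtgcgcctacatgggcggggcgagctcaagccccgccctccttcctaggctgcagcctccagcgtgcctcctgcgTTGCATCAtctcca

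The genes that carry these matches did not move together. Slc7a11 was higher in the libraries labelled GαqKO, while Slc1a4, described with the ASC exchangers, was lower. A match in these letters is a description of the sequence and not a measured binding site.

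The glutathione steps that use cysteine were looked at next to Slc7a11, in genes chosen after their values were seen. Gclc and Gclm, the subunits of glutamate-cysteine ligase, were both higher, at 1016 ± 47.3 (SD, n = 3) normalized counts in WT and 1428 ± 33.2 in the libraries labelled GαqKO for Gclc (log2 fold change 0.49, adjusted p = 1.58e-06). For Gclm the means were 678 ± 11.5 and 1033 ± 57.8 (log2 fold change 0.60, adjusted p = 5.6e-07). Gss, the synthetase of the next step, had 13.6, 24.3 and 12.2 normalized counts in WT and 7.5, 5.8 and 12.1 in the others and did not pass the test (log2 fold change -0.90, adjusted p = 0.0629). Of the exon bases of Gss, 90.2% lie within the span of other genes and 32.7% in their exons. Its reads may therefore not be wholly separate from theirs, and its low level is uncertain. The other 5 members of the glutamate and cystine group were under the filter, with at most 7.0 normalized counts in any library. They were Slc1a1, Slc1a2, Slc1a6, Slc1a7 and Slc7a13.

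The heteromeric carriers pair a heavy chain with 1 of several light chains. Slc3a2 encodes 4F2hc (CD98), the heavy chain of LAT1, xCT and the y+L carriers. It had 3188, 3312 and 3146 normalized counts in WT and 3773, 3809 and 3709 in the libraries labelled GαqKO. The groups did not overlap, but the rise was small, with a log2 fold change of 0.23 ± 0.041 (SE, limma adjusted p = 0.000228). Of its exon bases, 15.9% lie in exons of the noncoding gene Snhg1 on the same stretch, whose reads may have been counted with it.

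Slc3a1, the rBAT heavy chain that works with Slc7a9 in kidney and gut, had 129.5, 197 and 162 normalized counts in WT and 128, 135 and 144 in the others. The groups overlapped and the log2 fold change was -0.24 ± 0.15 (SE, limma adjusted p = 0.168), with a 95% interval of -0.56 to 0.078. Without WT replicate 1 it passed the test at -0.40 (adjusted p = 0.0255). Its partner Slc7a9 was listed at 0 or 1.0 in every library, and 69.1% of the exon bases of Slc3a1 lie within the span of Prepl, 26.8% in its exons.

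Slc7a5 encodes LAT1, the exchanger that brings in leucine and other large neutral amino acids, and per length of exon it was the highest transporter gene in both groups. It had 4734, 5139 and 4750.3 normalized counts in WT and 7632, 7513 and 7501 in the libraries labelled GαqKO. All 3 of the latter were above all WT libraries, with a log2 fold change of 0.63 ± 0.043 (SE, limma adjusted p = 1.69e-08) and a ratio of 1.55. Slc7a6, the light chain of the y+LAT2 exchanger for cationic amino acids and glutamine, had 2782, 2622 and 2729.9 in WT and 2805, 2850.1 and 2778 in the others. Its log2 fold change was 0.053 ± 0.042 (SE, limma adjusted p = 0.288), with an interval of -0.038 to 0.14. Slc7a7 and Slc7a8, further partners of 4F2hc, were under the filter and reached 11.6 and 6.9 normalized counts at most.

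Set against the heavy chain, the summed light chains were higher in the libraries labelled GαqKO. Per kb of exon, Slc7a5, Slc7a6, Slc7a7, Slc7a8, Slc7a10 and Slc7a11 summed to 2.48 ± 0.016 (SD, n = 3) times the level of Slc3a2 in WT and to 3.02 ± 0.033 times in the others. No library of one group reached the range of the other, since WT lay between 2.46 and 2.49 and the others between 2.99 and 3.05. Slc7a5 made up 74.3% ± 1.37 of this light chain sum in WT and 80.6% ± 0.324 in the libraries labelled GαqKO. These are transcript levels per length of all annotated exons, so the size of each ratio depends on that annotation. They say nothing of how many protein complexes form.

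The system L group beside Slc7a5 was low in abundance. Slc43a2 (LAT4), which carries large neutral amino acids without exchange, had 197, 192 and 174 normalized counts in WT and 203, 232 and 266 in the libraries labelled GαqKO. The groups did not overlap, but the 2 nearest libraries were 197 and 203, and the log2 fold change was 0.31 ± 0.12 (SE, limma adjusted p = 0.0314). The call was lost without WT replicate 2 (adjusted p = 0.0585), WT replicate 3 (0.0975), GαqKO replicate 2 (0.0676) or GαqKO replicate 3 (0.155). Slc43a1 (LAT3) had at most 21.6 normalized counts and a log2 fold change of 0.13 (adjusted p = 0.746), which was -0.087 without GαqKO replicate 1. Summed per kb of exon, the system L group had 1287 ± 60.3 normalized counts in WT and 1987 ± 17.3 in the libraries labelled GαqKO, nearly all of it Slc7a5.

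None of the 4 tested carriers of cationic amino acids passed the test, though Slc7a2 was close to the threshold. Slc7a1 (CAT1), the main arginine and lysine importer of most cells, had 3720.4, 3749 and 4044 normalized counts in WT and 3811, 3757 and 3559.9 in the libraries labelled GαqKO. Its log2 fold change was -0.049 ± 0.046 (SE, limma adjusted p = 0.374) and its 95% interval, -0.15 to 0.052, allows only small changes. Slc7a2 (CAT2), the CAT carrier of arginine in macrophages and liver, had 1331, 1365 and 1587 in WT and 1619, 1489 and 1630.4 in the others. The ranges overlapped at a log2 fold change of 0.15 (adjusted p = 0.0612), and the test was passed without WT replicate 3 (0.23, adjusted p = 0.0027) or without GαqKO replicate 2 (0.19, adjusted p = 0.0415). It was also passed with TMM scaling (adjusted p = 0.0480), with at least 10 normalized counts in every library (0.0389) and with the replicate block (0.0487), and over all alternatives the adjusted p ran from 0.0027 to 0.274. Slc7a3, with at most 23.2 normalized counts, had a log2 fold change of 0.64 (adjusted p = 0.217) with an interval of -0.31 to 1.60. Summed per kb, the cationic group had 886 ± 32.9 normalized counts in WT and 907 ± 10.97 in the libraries labelled GαqKO.

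System A is the sodium-coupled uptake of small neutral amino acids such as alanine and glutamine, and its 3 genes diverged. Slc38a4 (SNAT4), an imprinted gene expressed from the paternal allele in mice, had 2804, 2783 and 2596 normalized counts in WT and 68.5, 56.7 and 55.4 in the libraries labelled GαqKO. Every WT library was far above all of the others, by a ratio of 45.3 between the means. The log2 fold change was -5.48 ± 0.088 (SE, limma adjusted p = 1.27e-14), the second largest fall among the transporter genes tested. Of its exon bases 25.0% lie within the span, but not the exons, of the noncoding gene Gm32840 on the opposite strand, which rose from 29.0 ± 1.41 to 139.9 ± 7.37 normalized counts (log2 fold change 2.23, adjusted p = 4.73e-08). Since the strand setting of the counting was not stated, reads of the 2 genes may not be wholly separate.

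Slc38a1 (SNAT1), a glutamine carrier, fell as well. It had 3115, 3194 and 3329 normalized counts in WT and 591, 577 and 644 in the libraries labelled GαqKO. The groups were far apart, at a ratio of 5.32 and a log2 fold change of -2.41 ± 0.054 (SE, limma adjusted p = 2.76e-13). Of its exon bases 12.9% lie in exons of the noncoding genes Gm56719 and Gm56740. Gm56719, on the opposite strand, fell from 20.5 ± 4.01 to 3.03 ± 4.41 normalized counts (log2 fold change -3.01, limma adjusted p = 0.00123). It passed the filter only through the WT libraries. With the strand setting of the counting not stated, reads of these genes and Slc38a1 may not be wholly separate.

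Slc38a2 (SNAT2), the system A gene known to be induced by amino acid shortage, went the other way. It had 7028, 7025 and 7130.0 normalized counts in WT and 9098, 8602 and 8653 in the libraries labelled GαqKO. All of the latter were higher, with a log2 fold change of 0.31 ± 0.040 (SE, limma adjusted p = 9.18e-06). Slc38a2 thus made up 54.4% ± 0.745 of the system A transcripts per kb in WT and 95.6% ± 0.173 in the libraries labelled GαqKO. The share of Slc38a4 went from 33.0% ± 1.22 to 1.03% ± 0.0923 and that of Slc38a1 from 12.7% ± 0.491 to 3.37% ± 0.237. These shares depend on the annotated exon bases, 18909 for Slc38a1, 9698 for Slc38a2 and 6178 for Slc38a4. Without division by length, Slc38a1 was above Slc38a4 in WT, with means of 3213 and 2727 normalized counts. The sum of the system A and N group per kb was 1340.0 ± 7.08 in WT and 948 ± 29.1 in the others, a ratio of 0.707. The system N genes Slc38a3 and Slc38a5 reached 5.8 and 0 normalized counts at most.

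Slc38a1, Slc38a2 and Slc38a4 lie next to each other on the minus strand of chromosome 15 (GRCm39). Slc38a1 spans chr15:96469298-96541851, Slc38a2 chr15:96585266-96597894 and Slc38a4 chr15:96892693-96958593. The gaps between them measure 43.4 kb and 294.8 kb, so the gene that was higher lies between those that were lower. Beyond Slc38a4, Amigo2 rose from 0.324 ± 0.561 to 510.2 ± 6.99 normalized counts and Pced1b from 8.18 ± 4.71 to 227 ± 5.88. Both passed the filter only through the libraries labelled GαqKO, where they were high. On the side of Slc38a1, Arid2 fell by 0.34 on the log2 scale (adjusted p = 0.00138), and Scaf11 did not pass the test (log2 fold change 0.066, adjusted p = 0.171). Next to Arid2, 2610037D02Rik rose from 151 ± 22.4 to 256 ± 28.0 normalized counts (log2 fold change 0.77, limma adjusted p = 0.000123). Neighbours thus moved both ways within this stretch.

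**Figure D3:**
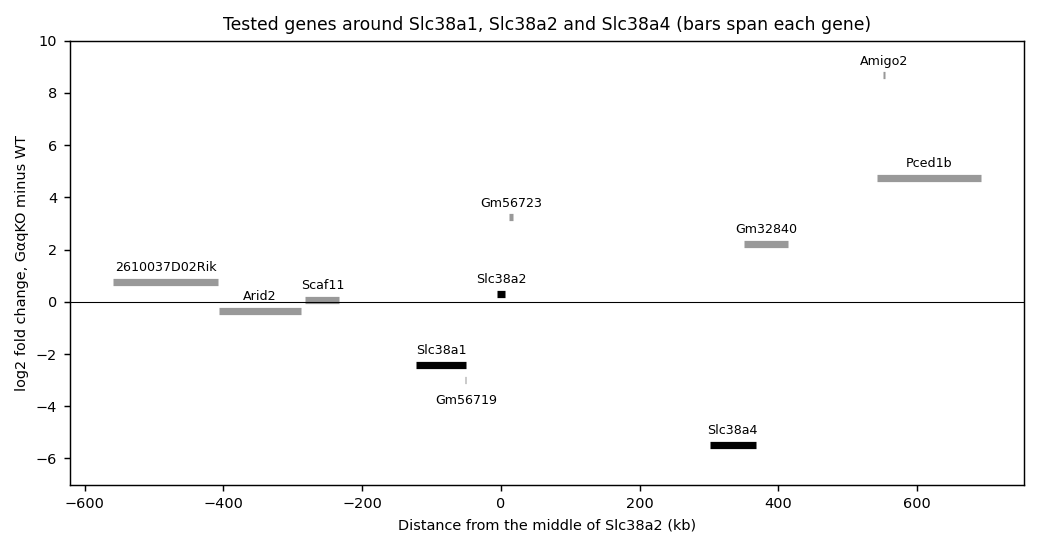
Log2 fold change, libraries labelled GαqKO minus WT, of the tested genes around the system A genes, against the distance from the middle of Slc38a2 in kb; each bar spans a gene, black for the SLC38 genes and grey for others. Slc38a2 (0.31) sits between Slc38a1 (-2.41) and Slc38a4 (-5.48), and Amigo2 (8.67) is the highest. Amigo2 and Pced1b passed the filter only through the libraries labelled GαqKO.

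The 4 tested SLC38 carriers of lysosomes, or of less settled place, were all lower, as were 34.1% of all genes tested. Slc38a10 was the most abundant of them, with 2954, 2844 and 2898 normalized counts in WT and 2166, 2129.8 and 2053 in the libraries labelled GαqKO. The groups did not overlap, at a log2 fold change of -0.45 ± 0.043 (SE, limma adjusted p = 4.98e-07). Slc38a7, which exports glutamine and asparagine from lysosomes, fell from 766 ± 26.8 (SD, n = 3) to 538 ± 18.8 (log2 fold change -0.51, adjusted p = 5.15e-06). Slc38a9, the lysosomal arginine sensor of mTORC1, went from 153 ± 9.57 to 114 ± 12.4 (log2 fold change -0.43, adjusted p = 0.00993), and Slc38a6 from 241 ± 27.5 to 146 ± 4.31 (log2 fold change -0.71, adjusted p = 6.69e-05). These falls were moderate, and none passed a log2 fold change of 1. Slc38a8 and Slc38a11 had at most 4.6 normalized counts.

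The SLC36 genes encode amino acid carriers that sit largely on lysosomes. Slc36a4 had 769.6, 722 and 811 normalized counts in WT and 548, 577 and 536 in the libraries labelled GαqKO. The groups did not overlap, with a log2 fold change of -0.47 ± 0.064 (SE, limma adjusted p = 1.96e-05). Slc36a1 (PAT1) had 459, 441 and 455 in WT and 428, 468 and 440.1 in the others, which overlapped. Its log2 fold change of -0.021 (adjusted p = 0.8) had an interval of -0.17 to 0.13 and was 0.0070 without GαqKO replicate 1. Slc36a2 and Slc36a3 reached at most 4.2 normalized counts.

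The ASC exchangers, sodium-dependent carriers that swap alanine, serine, cysteine and, for Slc1a5, glutamine, were slightly lower. Slc1a5 (ASCT2) had 1604, 1764 and 1642 normalized counts in WT and 1299.6, 1422 and 1465 in the libraries labelled GαqKO, with a log2 fold change of -0.26 ± 0.057 (SE, limma adjusted p = 0.00116). Slc1a4 (ASCT1) had 1189, 1074 and 1197 in WT and 1067, 919 and 957 in the others, with a log2 fold change of -0.23 ± 0.065 (SE, limma adjusted p = 0.00606). For both genes the groups did not overlap, but for Slc1a4 the nearest libraries were 1074 and 1067. Slc7a10, the third gene of this group, was listed at 0 in all 6 libraries, and 76.2% of its exon bases lie within the span of Lrp3.

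Among the SLC6 genes, the abundant ones carry taurine and creatine, which are osmolytes and energy buffers rather than building blocks of protein. Slc6a6, the taurine carrier, had 7209, 7219.6 and 7596 normalized counts in WT and 4501, 4567 and 4272 in the libraries labelled GαqKO. All WT libraries were above all of the others, at a log2 fold change of -0.72 ± 0.043 (SE, limma adjusted p = 3.91e-09). Slc6a8, the creatine carrier on the X chromosome, fell from 1362 ± 84.7 (SD, n = 3) to 843 ± 17.0 normalized counts (log2 fold change -0.69, adjusted p = 1.14e-07).

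Slc6a17, a carrier of proline, leucine and other neutral amino acids on synaptic vesicles, was near the lower limit of detection. It had 39.7, 35.9 and 23.4 normalized counts in WT and 2.8, 2.3 and 2.0 in the libraries labelled GαqKO. The groups did not overlap, with a log2 fold change of -3.30 ± 0.38 (SE, limma adjusted p = 3.74e-06). In recovered reads this was 98 reads in 3 WT libraries against 5 in 2 libraries labelled GαqKO, a ratio of 12.7 with a 95% counting interval of 5.28 to 40.1 that covers counting error only. Slc6a7, the proline carrier of neurons, had 13.6, 14.6 and 15.3 in WT and 8.5, 12.7 and 18.1 in the others, with a log2 fold change of -0.19 ± 0.35 (SE, limma adjusted p = 0.65), which was 0.068 without GαqKO replicate 1. Of the 19 SLC6 genes among the members the other 15 were under the filter and reached at most 9.2 normalized counts, the highest being the serotonin carrier Slc6a4. Among those below it were the glycine carriers Slc6a5 and Slc6a9 and the noradrenaline and dopamine carriers Slc6a2 and Slc6a3. Slc6a14, Slc6a15, Slc6a18 and Slc6a19 for neutral amino acids were also below it. Of the exon bases of Slc6a9, 90.2% lie within the span of other genes and 33.8% in their exons.

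Slc43a3 shares its family with LAT3 and LAT4 but is known as a carrier of purine nucleobases, and it had the largest fall of the 27. It had 643, 696 and 744 normalized counts in WT and 1.9, 2.3 and 9.1 in the libraries labelled GαqKO, where it was close to absent. The log2 fold change was -7.24 ± 0.36 (SE, limma adjusted p = 6.95e-10), from -7.81 to -6.91 when any single library was left out. The WT mean was 157 times the mean of the 3 libraries labelled GαqKO. GαqKO replicate 3 was the highest of its group, and its recovered reads were not used. Without this library 2063 reads in 3 WT libraries stood against 4 in 2 of the others. This is a ratio of 335 with a 95% counting interval of 131 to 1231 that covers counting error only. Slc43a3 lies on the plus strand at chr2:84766862-84788865, 68.5 kb from Slc43a1 on the same strand. Rtn4rl2 between them was higher (3.41 ± 2.16 to 40.6 ± 4.37 normalized counts, log2 fold change 3.39, adjusted p = 1.09e-05). It passed the filter only through the libraries labelled GαqKO. On the other side of Slc43a3, P2rx3, Ssrp1 and Tnks1bp1 were lower, with log2 fold changes of -1.48, -0.36 and -0.81 (limma adjusted p = 0.00164, 4.01e-06 and 1.42e-09). P2rx3 passed the filter only through the WT libraries. Gm13712 beyond them did not pass the test (limma adjusted p = 0.096).

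The remaining untested members were Slc7a4, Slc7a12, Slc7a14 and Slc7a15. They had at most 6.9 normalized counts, and 97.3% of the exon bases of Slc7a4 and 92.6% of those of Slc7a15 lie within other genes. Over the 34 genes under the filter, 2 were listed at 0 in all libraries (Slc7a10 and Slc38a5), and 20 had at most 3 normalized counts in every library. At this depth a difference between the groups was not detectable for most of these genes, which is not to say that they are silent.

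Read per kb of exon, the first 3 places among the transporter genes were the same in both groups. In WT it ran from Slc7a5 (1269 ± 59.6 normalized counts per kb) through Slc38a2 (728 ± 6.14), Slc3a2 (689 ± 18.4) and Slc6a6 (602 ± 18.1) to Slc38a4 (441 ± 18.6). Slc7a6 (416 ± 12.5) and Slc38a10 (414 ± 7.83), which follow, did not differ from Slc38a4 or from each other beyond their spread. In the libraries labelled GαqKO it ran from Slc7a5 (1965 ± 18.9) through Slc38a2 (906 ± 28.1), Slc3a2 (807 ± 10.8) and Slc7a6 (432 ± 5.57) to Slc6a6 (365 ± 12.7). Below these, Slc1a3 (151 ± 5.12) and Slc7a2 (156 ± 7.75) overlapped. Slc38a4 went from place 5 to place 21 of the 27, Slc38a1 from 12 to 17, Slc43a3 from 15 to 26, and Slc1a3 from 23 to 12. The places of different genes depend on the annotated exon length by which counts were divided.

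**Figure D4:**
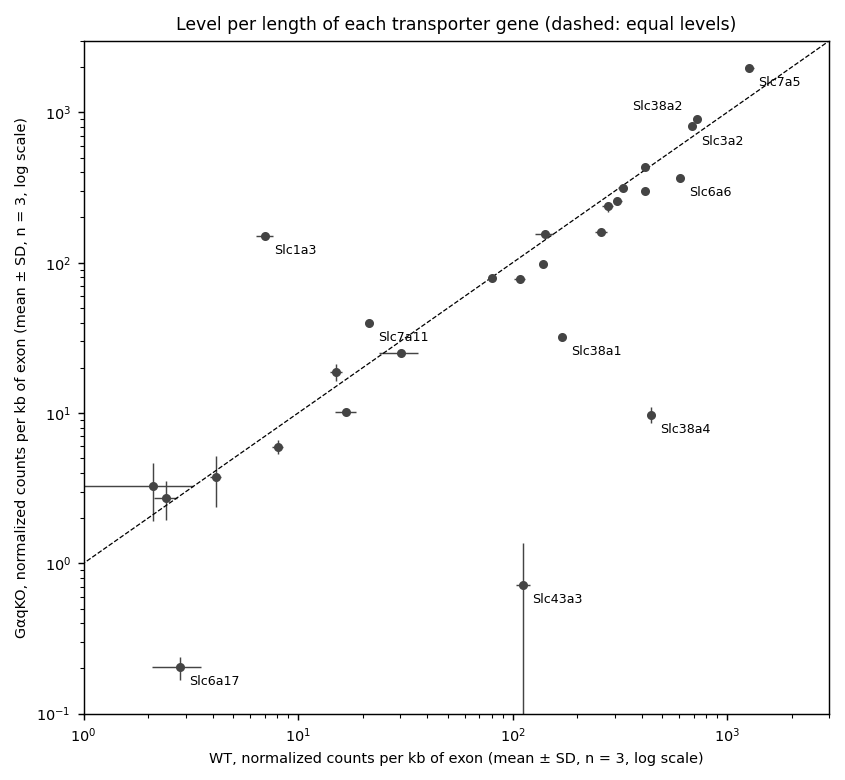
Level of each tested transporter gene in WT (x axis) and in the libraries labelled GαqKO (y axis), in normalized counts per kb of exon on log scales, with means and SD of 3 libraries; the dashed line marks equal levels. Slc1a3 lies far above the line, Slc38a1, Slc38a4, Slc43a3 and Slc6a17 lie far below it, and Slc7a5 is highest in both.

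The enzymes that make and break down amino acids were listed as well, because carriers supply or relieve them. Of 46 listed genes 39 were tested, of which 20 rose and 11 fell in the libraries labelled GαqKO, or 79.5% called against 65.8% of all genes tested, with a median log2 fold change of 0.17. DESeq2 on 5 libraries called 13 of them higher. Ass1, which makes argininosuccinate for arginine synthesis, was the largest rise, with 4.2, 9.7 and 10.2 normalized counts in WT and 210.3, 188 and 203 in the others (log2 fold change 4.56, adjusted p = 6.8e-09). Ass1 passed the filter only through the libraries labelled GαqKO, as did Bhmt, Gldc and Sds among the 20 that rose. Their calls are no support for a change of the list. The next step, Asl, moved the other way (log2 fold change -0.56, adjusted p = 0.00656). Cth, which releases cysteine from cystathionine, had 39.7, 66.1 and 46.8 in WT and 93.0, 119 and 118 in the others (log2 fold change 1.12, adjusted p = 0.00026). Odc1, the entry to polyamines, and Dbt of branched-chain amino acid breakdown were higher, with log2 fold changes of 0.77 and 0.67. The largest fall was that of Ahcy, which hydrolyses S-adenosylhomocysteine, from 1023, 1007 and 993 to 405, 380.4 and 379 (log2 fold change -1.38, adjusted p = 1.48e-10). Gls2, a glutaminase, fell by 0.91 on the log2 scale (adjusted p = 0.000277), and Gpt2, the mitochondrial alanine aminotransferase, by 0.64 (adjusted p = 6.8e-07).

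Further carriers of amino acids were counted the same way. Of 26 listed genes, most of which serve mitochondria, lysosomes or vesicles, 21 were tested, with 12 higher and 3 lower, or 71.4% called against the 65.8% of all genes, and a median log2 fold change of 0.26. The list also holds Slc6a20a and Slc6a20b, which were under the filter, and Slc16a10, a plasma membrane carrier of aromatic amino acids that was higher (log2 fold change 0.41, adjusted p = 0.00578). Sfxn5 of mitochondria had 360.2, 359 and 458 normalized counts in WT and 847, 764 and 770.4 in the libraries labelled GαqKO (log2 fold change 1.02, adjusted p = 2.75e-07). The mitochondrial carriers Slc25a13 (aspartate and glutamate), Slc25a38 (glycine) and Slc25a22 (glutamate) were higher, with log2 fold changes of 0.60, 0.58 and 0.52. Slc66a1, which exports cationic amino acids from lysosomes, fell from 172 ± 18.3 to 100.2 ± 29.5 (log2 fold change -0.81, adjusted p = 0.0013). Slc17a5 and Slc15a4, also of lysosomes, fell with log2 fold changes of -0.37 and -0.25. Ctns and Mfsd12, of lysosomes too, were higher, with log2 fold changes of 0.33 and 0.38 (limma adjusted p = 0.00318 and 0.0330). For Mfsd12 the groups overlapped, and 41.2% of its exon bases lie in exons of other genes. Lysosomal genes of the list thus moved both ways. Past a log2 fold change of 1 were Sfxn5 and Slc17a6, a vesicular glutamate carrier with 0, 1.0 and 4.1 normalized counts in WT and 14.1, 22.0 and 20.1 in the others. Slc17a6 passed the filter only through the libraries labelled GαqKO, so its call is no support for a change of the list.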

How the data were processed

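Poly-A selected, stranded libraries of WT and GαqKO MEFs were sequenced as paired 150-base reads. The authors aligned them to GRCm39 and used featureCounts with GENCODE release 32 to count reads on each gene. What they deposited is a normalized signal: each library's gene counts, divided by its size factor. The strand setting of the counting was not given in the sources used here. Gene symbols, exon lengths and coordinates came from GENCODE M39 of the same build, which matched 56310 of 56953 identifiers (98.9%). Exon length was the union of all annotated exons of a gene.

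Samples were grouped by title. Values were transformed as log2(normalized count + 1) and tested two-sided with limma, whose prior spread followed a trend in expression. Adjustment was by Benjamini-Hochberg over 14096 genes, those with 10 or more normalized counts in 3 or more libraries. The pseudocount makes fold changes of low genes too small. The 3 libraries of a group are biological replicates by the study's description, each of the same line, so p-values measure the spread between these libraries. No pair agreed within counting noise, with a chi-square per gene of 2.44 to 5.50 among recovered reads.

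In all 6 libraries 100.0% of values were whole multiples (within 0.1) of 1 step, so reads could be recovered. The step of GαqKO replicate 3 is near 1 and its recovered reads failed a check of the unit, so they were left out, and edgeR and DESeq2 were run as alternatives on 5 libraries. The floor was 3 counts.

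The members and lists were chosen with earlier results of these data known. The values of 1 member under the filter are not reported here. Library values and full statistics are given for members past a log2 fold change of 1, the most abundant tested member of each functional group, both heavy chains and the light chains of Slc3a2. From each further list, up to 4 genes per direction with the largest changes and a mean of at least 50 normalized counts are named. Bhmt, Ctns, Gclc, Gclm, Gldc, Gss, Mfsd12, Sds, Slc16a10, Slc17a6, some library values of other members and the neighbouring genes fall outside this rule. They were chosen after their values were seen.

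On simulated data limma recovered 194 of 200 changed genes among 13988 tested, with 9 false calls. The changed genes all had a mean of at least 50 normalized counts and were far fewer than the genes called here. The spread between simulated libraries was fixed at 1 value for all genes. These figures therefore do not give the recovery of low genes or the rate of false calls in the real data. On 5 simulated libraries edgeR recovered 194 among 14228 with 8 false calls and DESeq2 180 among 14163 with 4; at a fold of 1.5 these were 62, 62 and 53 of 67. R 4.3.3, limma 3.58.1, edgeR 4.0.16, DESeq2 1.42.0 and Python 3.11.15 were used.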

Additional observations from a re-analysis of the deposited data

How the results depend on the processing

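The scaling, the low-value filter, the pseudocount, the prior spread and the test were varied, and libraries were left out singly. The number of members higher stayed within 5 to 6 and lower within 13 to 14 when 1 library was left out, past a log2 fold change of 1 within 1 to 1 and 4 to 4, and enzymes higher within 16 to 19 and lower within 9 to 13. With no filter, 4 members instead of 1 were higher past that change, the added ones being Slc6a16, Slc7a8 and Slc7a14, at most 6.9 normalized counts. With at least 10 normalized counts in every library, 2 instead of 4 were lower past it, because Slc6a17 and Slc43a3 were then not tested. DESeq2 called 13 enzymes higher instead of 20, and the cause was not tested. Of 428 values of single genes under alternatives, 408 kept their direction and their side of the threshold. Calls of Slc38a9 and Slc1a4 were lost in DESeq2 (adjusted p = 0.077 and 0.071), and that of Slc43a2 in 8 alternatives. Uncalled genes changed sign without GαqKO replicate 1. With single libraries left out, log2 fold changes ran from -0.44 to 0.0677 for Slc6a7 and from -0.0865 to 0.25 for Slc43a1. For Slc36a1 they ran from -0.0574 to 0.00702, and its log2 fold change in edgeR was 9.45e-05.

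The replicate numbers did not pair the samples: deviations of same-numbered libraries correlated at -0.0453, -0.148 and -0.0638. With the replicate number as a block, 6 members were higher and 13 lower, with 19 enzymes higher and 11 lower. With TMM scaling or with at least 10 normalized counts in every library, 7 members were higher, Slc7a2 being added. Among single members the block changed the call of Slc7a2 (adjusted p = 0.0487) and Slc43a2 (adjusted p = 0.0525). Depth limits the genes under the filter and the fold changes of Slc6a17 and Slc43a3.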
